A study of Mus musculus with 13 samples.

Results

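The genes described here are 39 genes of glucose use and of the response to low oxygen. They were followed by mRNA sequencing in cultured mouse cell lines labelled as melanoma. The genes were taken by symbol from a fixed list. The list holds 23 glycolytic genes, which are glucose transporters, enzymes of glycolysis and the kinases that steer them, and 16 genes of the HIF system and HIF targets. All 39 were found among 35498 genes with transcripts in the tables, and 38 were among the 13044 genes that passed a filter on low counts. The gene that failed was Adm, which encodes the vasodilator peptide adrenomedullin and had 0 CPM in 11 of 13 libraries and at most 0.107 CPM in the others. CPM, the count scaled to a fixed library total, is a depth-scaled level and is used between libraries. TPM, which also takes transcript length into account, is used between genes.

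Glycolysis splits glucose into pyruvate, and lactate dehydrogenase turns pyruvate into lactate, a route that many tumours use heavily even when oxygen is present. Hypoxia-inducible factors (HIFs) are pairs of an alpha subunit (Hif1a or Epas1) and a beta subunit. In the presence of oxygen, prolyl hydroxylases (Egln genes) mark the alpha subunit for destruction through the VHL protein, and when oxygen is short the factor accumulates and switches on transporters, glycolytic enzymes, Vegfa, Bnip3 and Egln3 itself. The control of HIF alpha is largely at the protein level, which mRNA levels do not show.

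The 13 libraries came from 5 numbered cell lines grown with doxycycline, an antibiotic used to switch on genes under an inducible promoter, for 0, 6 or 48 h, in a series about soluble adenylyl cyclase (sAC, gene Adcy10) placed in parts of the cell. Lines 6, 7 and 16, titled NLS, gave 1 library each at t0 (no doxycycline), t6 (6 h) and t48 (48 h). Lines 10 and 12, titled LacZ after the bacterial beta-galactosidase gene often used as a control, gave 1 library each at t48 and t0. All were poly(A) RNA of the same label, a melanoma cell line in vitro. The t6 and t48 libraries carry the compartment label nuclear, including those titled LacZ, and the t0 libraries carry none. The groups follow the titles. Whether a line is a single clone is not given in the sources used here. Each construct has its own lines, so construct and cell line cannot be told apart. Beyond the line numbers, nothing in the labels separates cultures, and what the p-values weigh is the scatter among these 13 libraries, which may be partly technical.

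Depth was 18512887 to 22584628 estimated reads per library. Adcy10 did not follow the time labels. In the order t0, t6 and t48 it had 366, 371 and 339 CPM in line 6, 200.4, 181 and 199 CPM in line 7 and 0.671, 1.19 and 1.22 CPM in line 16, with 0 to 3 reads per LacZ library. Groups are therefore named as labelled. Of 7 melanocyte markers, only Mitf was above 1 CPM, at 2.76 to 5.37 CPM. Tyr, Dct, Pmel, Mlana and Sox10 stayed below 1 CPM, and Tyrp1 was at 0 in every library. In contrast, 6 of 7 fibroblast markers were above 1 CPM, with Col1a1 at 2555 to 6924 CPM. The exception was Lum, at 0.0536 CPM or less. The name melanoma is thus that of the labels, and these markers do not bear it out. The summed fibroblast markers ran from 10000 to 12170 CPM in NLS t0, 7792 to 9439 CPM in NLS t6, 15980 to 17070 CPM in NLS t48, 7128 to 7517 CPM in LacZ t48 and 8070 to 8219 CPM in LacZ t0. Of 5 leukocyte markers 1, Cd68, was above 1 CPM, of 4 endothelial markers 1 and of 4 keratinocyte markers 2, with sums of at most 4.53 CPM for endothelial and 4.67 CPM for keratinocyte markers. In bulk libraries, fewer cells of a type and less RNA per cell cannot be told apart. The part of cell makeup in the results below was not tested.

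Glycolytic transcripts were among the abundant mRNAs of these cells. By median TPM over the 13 libraries, Gapdh, which oxidises glyceraldehyde phosphate, led at 6235 TPM (4753 to 7704 TPM). Pkm, pyruvate kinase, followed at 2000 TPM (1705 to 2715), Ldha, the lactate dehydrogenase subunit that favours lactate, at 1739 TPM (1560 to 2196) and Aldoa, aldolase, at 1455 TPM (1237 to 2055). The ranges of Pkm, Ldha and Aldoa overlapped each other, and that of Gapdh lay above all of them. Pgk1, Pgam1, Eno1, Tpi1 and Gpi1, enzymes of the steps between, had medians of 784 to 1242 TPM with overlapping ranges. Entry and control steps were lower. Hk1, the more abundant of the hexokinases listed, had a median of 111 TPM, and Hk2, the form often raised in tumours, 12.7 TPM, with no overlap of their ranges. The 3 phosphofructokinase genes Pfkl, Pfkm and Pfkp had medians of 98.97, 78.6 and 71.5 TPM. Slc2a1, the basal glucose transporter, had 66.2 TPM and Slc2a3, a high-affinity transporter, 4.83 TPM. Pfkfb3 and Pfkfb4, which make and remove the activator of phosphofructokinase, had 7.72 and 3.87 TPM. Aldoc and Eno2, forms of aldolase and enolase best known from the nervous system, had 3.19 and 3.85 TPM.

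Among HIF genes the median TPM ran from 219 TPM for Bnip3l, a receptor for the removal of mitochondria, down to 1.26 TPM for Epas1, leaving Adm aside. Ndrg1, Ero1l, Hif1a, Vegfa, Higd1a and Bnip3 had medians of 126 to 205 TPM with overlapping ranges. Hif1a thus had a median of 165 TPM (124 to 263 TPM), far above the range of Epas1, the other alpha subunit (0.0322 to 1.89 TPM). The prolyl hydroxylases Egln1 and Egln3 had medians of 39.05 and 26.8 TPM. These gene levels also count transcripts not annotated as protein-coding. Such a transcript led for Bnip3l (24.5 to 36.9% of its TPM), Slc2a1 (48.95 to 59.5%), Gpi1 (44.7 to 49.6%) and Pdk1 (30.4 to 45.3%). Between libraries, in CPM, the widest range belonged to Ndufa4l2, a mitochondrial protein known to lower respiration under hypoxia. It ran from 0.256 to 89.6 CPM, a ratio of 350 between the highest and the lowest library. Next came Epas1 with a ratio of 57.7, Aldoc with 29.98 and Egln3 with 25.8. The lowest libraries held 5 reads for Ndufa4l2, 2 for Epas1 and 6 for Aldoc, so these ratios are imprecise. All 34 other members above 0 in every library had ratios of 5.23 or less, and Pfkp varied least, with a ratio of 1.32.

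Added up, the 23 glycolytic genes made 16620 ± 760 TPM in NLS t0, 14150 ± 572 TPM in NLS t6 and 16480 ± 865 TPM in NLS t48 (SD, n = 3 each), and 21270 ± 622 TPM in LacZ t48 against 18980 ± 771 TPM in LacZ t0 (SD, n = 2 each). The 16 HIF genes made 1687 ± 86.5 TPM in NLS t0, 1142 ± 28.1 TPM in NLS t6 and 1880 ± 35.2 TPM in NLS t48, and 1630 ± 41.7 TPM in LacZ t48 against 1356 ± 98.3 TPM in LacZ t0. In both sums the NLS t6 libraries were the lowest of all. A large part of the HIF difference between NLS t6 and the other NLS groups was 1 gene, Ndufa4l2. It made little of the NLS t48 against t0 difference, and in LacZ it went against the sum. Its means were 302.9 TPM in NLS t0, 33.15 TPM in NLS t6 and 308.5 TPM in NLS t48. In LacZ t48 and LacZ t0 they were 2.21 and 7.00 TPM. Values below are given for NLS in the order line 6, line 7, line 16 and for LacZ in the order line 10, line 12. Some values rest on the division of reads between near-identical genes. Eno1 shares 75.6% of its 31-base words with Eno1b, which averaged 1654 CPM against 1064 CPM for Eno1, and Pgk1 shares 68.1% with Gm5537, which was at 18.4% of the CPM of Pgk1, so the levels of Eno1 and Pgk1 are uncertain. Adding the reads of such copies to their genes left the counts of members called within 1 of those below.

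**Figure D1:**
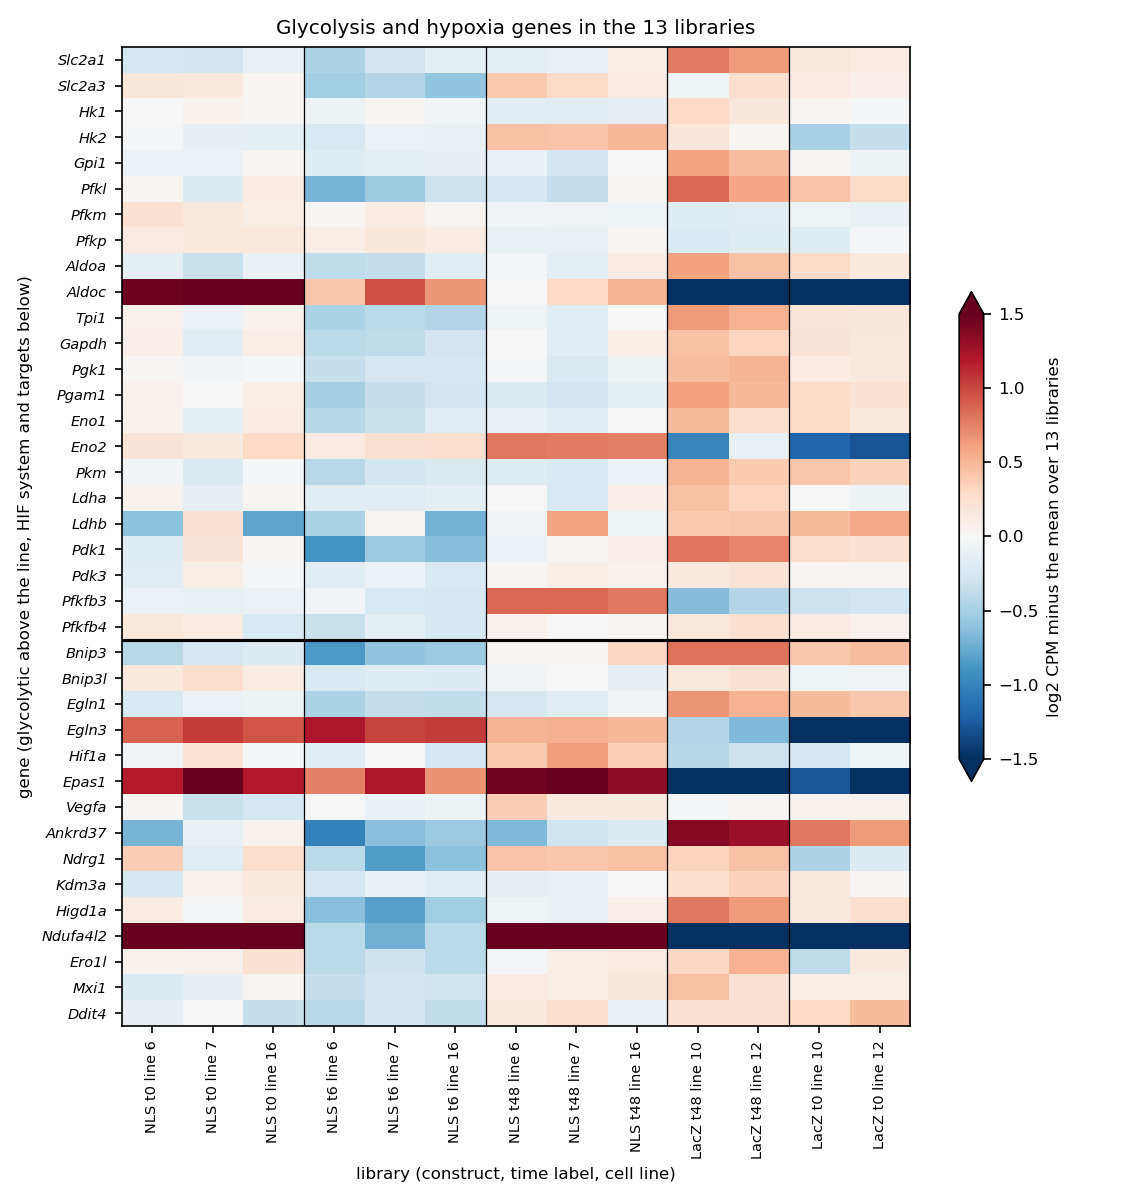
Level of each of the 38 tested members (rows, glycolytic genes above the line and HIF genes below) in each library (columns, by construct, time label and cell line), as log2 CPM minus the gene's mean over the 13 libraries. Colours end at -1.5 and 1.5. The NLS t6 columns are blue for most genes and the LacZ t48 columns red. Aldoc, Egln3 and Epas1 split the NLS from the LacZ libraries, and Ndufa4l2 is low in the LacZ and the NLS t6 libraries.

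HIF binds DNA at a short core, ACGTG or GCGTG, which was searched on both strands in RefSeq promoter windows of 300 bases (GRCm38.p6). A palindrome CACGTG counts on both strands for ACGTG. Windows were found for 34 of the 39 members; Bnip3l, Epas1, Ndrg1, Ndufa4l2 and Slc2a3 had no entry. Of the members' 52 windows 40 (76.9%) held at least 1 core, against 14380 of 32851 windows of all genes (43.8%). The share was 77.1% of 35 windows for glycolytic genes and 76.5% of 17 for HIF genes. The members whose windows held neither core were Eno2, Gpi1 and Tpi1. A match is a description of the letters, not of binding. The 250 bases before the RefSeq start are shown for 5 of the members whose t48 difference was lower in the NLS than in the LacZ lines, to show where the core letters stand. These stretches lie outside annotated exons. Sequences are from RefSeq (GRCm38.p6), written 5′ to 3′ on the gene's strand, with capitals for ACGTG and GCGTG and their reverse complements. The regions are chr12:54203875-54204124 (minus strand) for Egln3, chr7:46845554-46845803 (plus) for Ldha, chr2:71872974-71873223 (plus) for Pdk1, chr19:41911621-41911870 (plus) for Pgam1 and chrX:106186850-106187099 (plus) for Pgk1.
Egln3: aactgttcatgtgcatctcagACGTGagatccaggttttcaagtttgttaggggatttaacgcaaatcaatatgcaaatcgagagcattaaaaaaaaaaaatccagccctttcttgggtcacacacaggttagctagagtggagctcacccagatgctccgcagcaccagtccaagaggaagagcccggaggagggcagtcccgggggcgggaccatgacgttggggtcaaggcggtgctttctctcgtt
Ldha: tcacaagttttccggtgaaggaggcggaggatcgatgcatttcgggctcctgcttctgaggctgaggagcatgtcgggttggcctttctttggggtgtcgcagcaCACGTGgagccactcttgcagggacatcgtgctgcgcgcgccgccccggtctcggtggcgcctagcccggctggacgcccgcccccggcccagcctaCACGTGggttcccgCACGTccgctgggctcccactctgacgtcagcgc
Pdk1: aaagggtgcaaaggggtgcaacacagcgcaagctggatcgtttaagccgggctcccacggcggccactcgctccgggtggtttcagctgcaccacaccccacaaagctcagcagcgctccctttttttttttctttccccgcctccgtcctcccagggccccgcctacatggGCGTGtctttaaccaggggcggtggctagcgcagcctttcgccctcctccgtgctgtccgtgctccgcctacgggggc
Pgam1: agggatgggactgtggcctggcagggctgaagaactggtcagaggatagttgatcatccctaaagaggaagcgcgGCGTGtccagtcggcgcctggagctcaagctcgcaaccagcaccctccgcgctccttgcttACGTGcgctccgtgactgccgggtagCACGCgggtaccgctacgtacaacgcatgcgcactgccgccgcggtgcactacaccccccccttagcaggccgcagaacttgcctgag
Pgk1: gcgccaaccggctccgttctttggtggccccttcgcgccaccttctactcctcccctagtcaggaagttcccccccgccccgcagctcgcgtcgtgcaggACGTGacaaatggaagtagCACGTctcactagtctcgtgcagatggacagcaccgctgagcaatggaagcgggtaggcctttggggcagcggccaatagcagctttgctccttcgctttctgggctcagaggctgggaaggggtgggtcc
In these stretches Ldha had 5 matches to ACGTG over both strands and Pgk1 2. Egln3 had 1 match to ACGTG. Pdk1 had 1 match to GCGTG, and Pgam1 had 1 match to ACGTG and 2 to GCGTG.

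The comparison of NLS t6 with NLS t0 asks what differed in these genes after 6 h of doxycycline. The LacZ lines have no t6 library. The parts of the construct, of doxycycline itself and of handling or time in culture therefore cannot be told apart at t6. Among glycolytic genes 10 of 23 were lower in NLS t6 and 0 were higher, and among HIF genes 8 of 15 were lower and 0 were higher, by edgeR's quasi-likelihood test with Benjamini-Hochberg adjustment over all genes and an adjusted p below 0.05. Of all 13044 genes, 20.8% were called, 9.23% as lower and 11.6% as higher. The median log2 fold change was -0.149 over the glycolytic genes, -0.376 over the HIF genes and -0.003 over all genes tested. At an unadjusted p below 0.05 no member was higher, and 0 were higher by DESeq2. The groups did not overlap for any of the 18 called members. The calls rest on these same values, so such separation of called members, here and below, is no further support for them. The share of all genes without overlap was not counted.

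The glycolytic genes that fell ranged from the transporter gene Slc2a3 to pyruvate kinase and Pdk1. Tpi1, triose phosphate isomerase, had 599, 626 and 614 CPM in NLS t6, against 867, 782 and 863 CPM in NLS t0 (log2 fold change -0.45 ± 0.058 SE, adjusted p = 0.000143). Pdk1, the kinase that closes pyruvate dehydrogenase and so keeps pyruvate out of the mitochondria, had 53.9, 68.6 and 64.5 CPM in NLS t6, against 88.1, 115 and 101 CPM in NLS t0 (log2 fold change -0.70 ± 0.098 SE, adjusted p = 0.000301). Every t6 library of Pdk1 lay below every t0 library. Pgam1, phosphoglycerate mutase, had 734, 815 and 848 CPM in NLS t6, against 1080, 1038 and 1107 CPM in NLS t0 (log2 fold change -0.43 ± 0.0629 SE, adjusted p = 0.000404). The transporter gene Slc2a3 had 6.65, 7.05 and 6.34 CPM in NLS t6, against 10.8, 10.6 and 9.77 CPM in NLS t0 (log2 fold change -0.64 ± 0.11 SE, adjusted p = 0.00116). These 4 genes fell in each of the 3 lines. The largest fold was that of Aldoc, whose level at t6 was 0.481 of that at t0 (log2 fold change -1.05 ± 0.22 SE, adjusted p = 0.00389). Gapdh, Pgk1, Pfkl, Eno1 and Pkm were lower by log2 fold changes of -0.21 (Pkm) to -0.50 (Pfkl). Slc2a1 and Ldha did not pass. The transporter gene Slc2a1 had 87.6, 99.4 and 109.6 CPM in NLS t6 and 101, 100.2 and 112 CPM in NLS t0 (adjusted p = 0.599), and Ldha 1615, 1623 and 1642 CPM in NLS t6 and 1884, 1671 and 1858 CPM in NLS t0 (log2 fold change -0.15 ± 0.0739 SE, adjusted p = 0.177). The Slc2a1 groups overlapped and the Ldha groups did not.

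Among HIF genes the difference of Ndufa4l2 stood apart in size. It had 8.75, 6.998 and 8.72 CPM in NLS t6, against 81.8, 63.6 and 89.6 CPM in NLS t0, a level 0.104 of that at t0 (log2 fold change -3.26 ± 0.14 SE, adjusted p = 2.92e-08). Every t6 library lay far below every t0 library, in line 16, where Adcy10 was near 0, as in lines 6 and 7. Higd1a, a mitochondrial protein known as a HIF target, had 48.4, 42.6 and 52.02 CPM in NLS t6, against 80.6, 73.9 and 80.5 CPM in NLS t0 (log2 fold change -0.72 ± 0.0781 SE, adjusted p = 3.39e-05). Bnip3l had 116, 120.5 and 120.0 CPM in NLS t6, against 152, 163 and 148 CPM in NLS t0 (log2 fold change -0.38 ± 0.0527 SE, adjusted p = 0.000275). Ndrg1, a stress and differentiation gene, had 261, 193 and 224 CPM in NLS t6, against 444, 306 and 412 CPM in NLS t0 (log2 fold change -0.78 ± 0.14 SE, adjusted p = 0.00253). All 3 genes fell in every line. Ero1l, an oxidase of the endoplasmic reticulum, Bnip3, Egln1 and Mxi1, a Myc antagonist, were also called, with log2 fold changes of -0.48, -0.38, -0.28 and -0.22.

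The genes of the HIF system follow. Hif1a had 311, 346 and 288 CPM in NLS t6 and 334, 399 and 344 CPM in NLS t0 (log2 fold change -0.19 ± 0.0942 SE, adjusted p = 0.184). Epas1 had 3.32, 4.56 and 3.12 CPM in NLS t6 and 4.47, 6.42 and 4.503 CPM in NLS t0 (log2 fold change -0.49 ± 0.24 SE, adjusted p = 0.169). Both pairs of groups overlapped, as did those of Vegfa, the angiogenic growth factor, at 174, 162 and 164 CPM in NLS t6 and 175, 138 and 144 CPM in NLS t0 (log2 fold change 0.13 ± 0.0854 SE, adjusted p = 0.313). Of the hydroxylase genes, Egln1 passed and Egln3 did not. Egln1 had 53.6, 58.3 and 57.6 CPM in NLS t6, against 63.9, 70.3 and 71.05 CPM in NLS t0 (adjusted p = 0.0104), while Egln3 had 65.8, 57.2 and 58.7 CPM in NLS t6 and 52.3, 58.9 and 54.6 CPM in NLS t0 (log2 fold change 0.13 ± 0.0805 SE, adjusted p = 0.28). With the cell line as a block, Hif1a (adjusted p = 0.00171), Ddit4 (0.0141) and Ldha (0.0292) also passed as lower and Vegfa (0.0261) as higher; Vegfa also passed as higher without the NLS t0 library of line 6 (adjusted p = 0.0487).

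Of the 18 calls at t6, 13 held without any 1 of the 6 libraries. Bnip3 lost its call without the NLS t6 library of line 6 (adjusted p = 0.0514). Pfkl, Eno1 and Pkm lost theirs without that library (0.0539, 0.0663 and 0.146) or an NLS t0 library of line 6 or 16, Eno1 and Pkm also without the NLS t6 library of line 7, and Mxi1 without any 1 but the NLS t0 library of line 6 (up to 0.171). Without line 6 altogether 11 members were called, and Gapdh and Pgk1 were among those lost (adjusted p = 0.125 and 0.0624). Without line 16 altogether 4 of the HIF genes were called in place of 8, and Egln1 (0.0539) and Ndrg1 (0.0566) lost their calls. Without line 7, 5 HIF genes were called and Bnip3 was lost (0.053). Over all genes, 988 were called without line 6, 1354 without line 16 and 2462 without line 7, against 2716 with every line. Ero1l (0.0725 to 0.103) and Mxi1 were not called whichever line was left out. The share of reads on ribosomal protein genes was 4.21 to 4.35% in NLS t6 and 4.445 to 4.80% in NLS t0. The fibroblast sum, mostly collagen genes, was also lower. The leukocyte sum was higher, at 12.86 to 14.56 CPM in NLS t6 and 11.46 to 12.7 CPM in NLS t0. The melanocyte sum was 5.74 to 5.86 CPM in NLS t6 and 4.115 to 5.13 CPM in NLS t0. The part of these in the results was not tested.

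**Figure D2:**
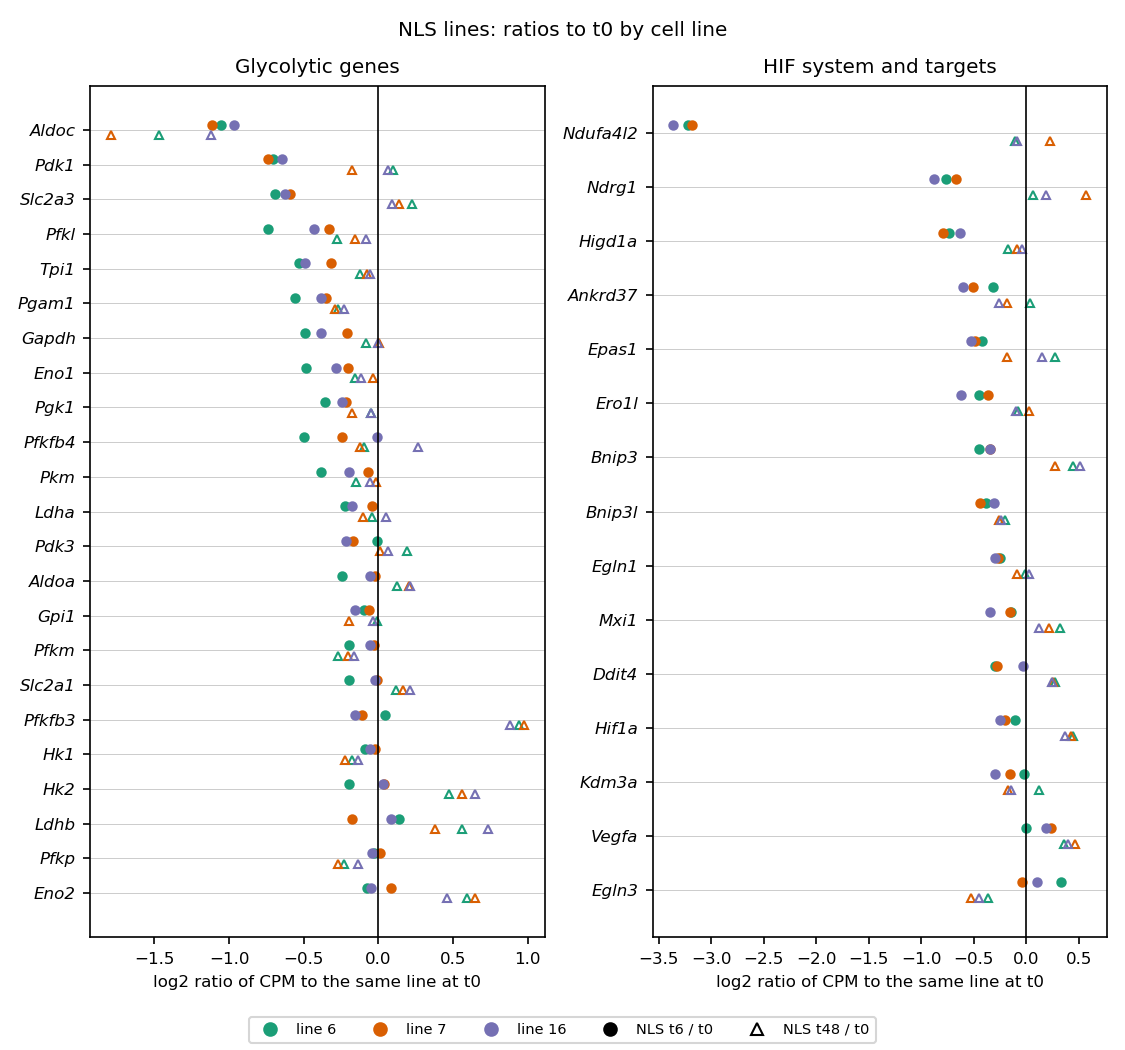
Log2 ratio of CPM at t6 (filled circles) and at t48 (open triangles) to CPM of the same NLS line at t0, for the 23 glycolytic and 15 HIF genes tested, coloured by cell line. Ndufa4l2, Aldoc, Ndrg1, Higd1a and Pdk1 lie left of 0 at t6 in all 3 lines, and at t48 the Ndufa4l2 ratios are back near 0 while Pfkfb3 lies near 0.93.

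At t48 the NLS lines differed from t0 in both directions. Among glycolytic genes 3 of 23 were higher in NLS t48 and 5 were lower, and among HIF genes 4 of 15 were higher and 2 were lower. Over all genes 26.1% were called, 14.8% as higher and 11.3% as lower, and 14 of the 38 members stand beside that background. The medians were -0.029 over the glycolytic genes, -0.006 over the HIF genes and -0.007 over all genes. No groups of a called member overlapped.

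The glycolytic genes that rose were Pfkfb3, Hk2 and Eno2. Pfkfb3 had 46.4, 46.5 and 44.2 CPM in NLS t48, against 24.2, 23.7 and 24.1 CPM in NLS t0 (log2 fold change 0.93 ± 0.0736 SE, adjusted p = 1.10e-06), which is 1.91 times the t0 level. Hk2 had 67.1, 66.6 and 69.98 CPM in NLS t48, against 48.4, 45.3 and 44.7 CPM in NLS t0 (log2 fold change 0.56 ± 0.0644 SE, adjusted p = 3.15e-05). The t48 values of both genes lay close together and well above all t0 values. Eno2 had 7.81, 7.78 and 7.65 CPM in NLS t48, against 5.18, 4.98 and 5.56 CPM in NLS t0 (log2 fold change 0.56 ± 0.16 SE, adjusted p = 0.0204). Aldoc fell, to 2.35, 2.89 and 3.35 CPM in NLS t48, against 6.505, 9.998 and 7.28 CPM in NLS t0 (log2 fold change -1.47 ± 0.22 SE, adjusted p = 0.000293). Pfkm had 147, 145 and 144 CPM in NLS t48, against 177, 167 and 162 CPM in NLS t0 (log2 fold change -0.21 ± 0.0486 SE, adjusted p = 0.00565). All t48 values of both genes lay below all t0 values. Pgam1 had 896, 849.8 and 944 CPM in NLS t48, against 1080, 1038 and 1107 CPM in NLS t0 (log2 fold change -0.26 ± 0.0629 SE, adjusted p = 0.00764), and Pfkp 136, 136 and 148 CPM in NLS t48, against 159.9, 164 and 163 CPM in NLS t0 (log2 fold change -0.21 ± 0.0547 SE, adjusted p = 0.0116). Hk1 also fell (-0.18 ± 0.0496 SE on the log2 scale), so that Pfkm, Pfkp and Hk1 fell while Hk2 and Pfkfb3 rose. For Slc2a1, with 109, 112 and 129 CPM in NLS t48 and the t0 values above, the log2 fold change was 0.17 ± 0.0856 SE (adjusted p = 0.173). Ldha had 1827, 1552 and 1924 CPM in NLS t48 (adjusted p = 0.811 against t0) and Pdk1 94.2, 102 and 106 CPM (adjusted p = 0.94), and the groups of both overlapped.

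Among HIF genes, the alpha subunit gene Hif1a rose. It had 456, 537 and 443 CPM in NLS t48, against 334, 399 and 344 CPM in NLS t0 (log2 fold change 0.41 ± 0.0941 SE, adjusted p = 0.00602). Vegfa had 224, 190.0 and 189.8 CPM in NLS t48, against 175, 138 and 144 CPM in NLS t0 (log2 fold change 0.40 ± 0.0853 SE, adjusted p = 0.00354). Bnip3, which like Bnip3l tags mitochondria for removal, had 102, 102 and 124 CPM in NLS t48, against 75.2, 84.3 and 87.3 CPM in NLS t0 (log2 fold change 0.41 ± 0.0934 SE, adjusted p = 0.00571). Its relative Bnip3l went the other way, with 132, 136 and 125 CPM in NLS t48, against 152, 163 and 148 CPM in NLS t0 (log2 fold change -0.24 ± 0.0526 SE, adjusted p = 0.00484). Egln3 fell to 40.5, 41.01 and 39.9 CPM in NLS t48, against 52.3, 58.9 and 54.6 CPM in NLS t0 (log2 fold change -0.45 ± 0.0815 SE, adjusted p = 0.0012). Bnip3 and Bnip3l thus moved apart. Mxi1 had 55.6, 54.6 and 57.5 CPM in NLS t48, against 44.5, 47.1 and 52.8 CPM in NLS t0 (log2 fold change 0.22 ± 0.0724 SE, adjusted p = 0.0411). Ndufa4l2, at 75.8, 74.2 and 84.1 CPM in NLS t48, overlapped its t0 values (log2 fold change -0.006 ± 0.12 SE, adjusted p = 0.981). Epas1 had 5.41, 5.64 and 4.99 CPM (adjusted p = 0.88) and Egln1 63.5, 66.2 and 72.4 CPM in NLS t48 (adjusted p = 0.832), both overlapping t0.

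Of these 14 calls, 11 held without any 1 of the 6 libraries. Hk1 lost its call without the NLS t48 library of line 6 (adjusted p = 0.0529) or 7 (0.0502). Eno2 and Mxi1 lost theirs without any 1 library but the NLS t0 library of line 16, with adjusted p-values of up to 0.0636 and 0.18. Without line 6 altogether 7 members were called, and the adjusted p of Hif1a was 0.0748, that of Pfkm 0.07 and that of Pgam1 0.0582. That fit called 1596 of all genes, against 3402 with every line. With the cell line as a block, Ldhb (adjusted p = 4.58e-06), Ddit4 (0.00194), Aldoa (0.00393), Slc2a1 (0.00789) and Ndrg1 (0.0488) also passed as higher and Pfkl (0.0413) as lower. The summed fibroblast markers, given above and mostly collagen genes, were higher in NLS t48 than in NLS t0 and NLS t6. The leukocyte sum was lower, at 7.65 to 8.803 CPM in NLS t48, against 11.46 to 12.7 CPM in NLS t0. Their part in the result was not tested.

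**Figure D3:**
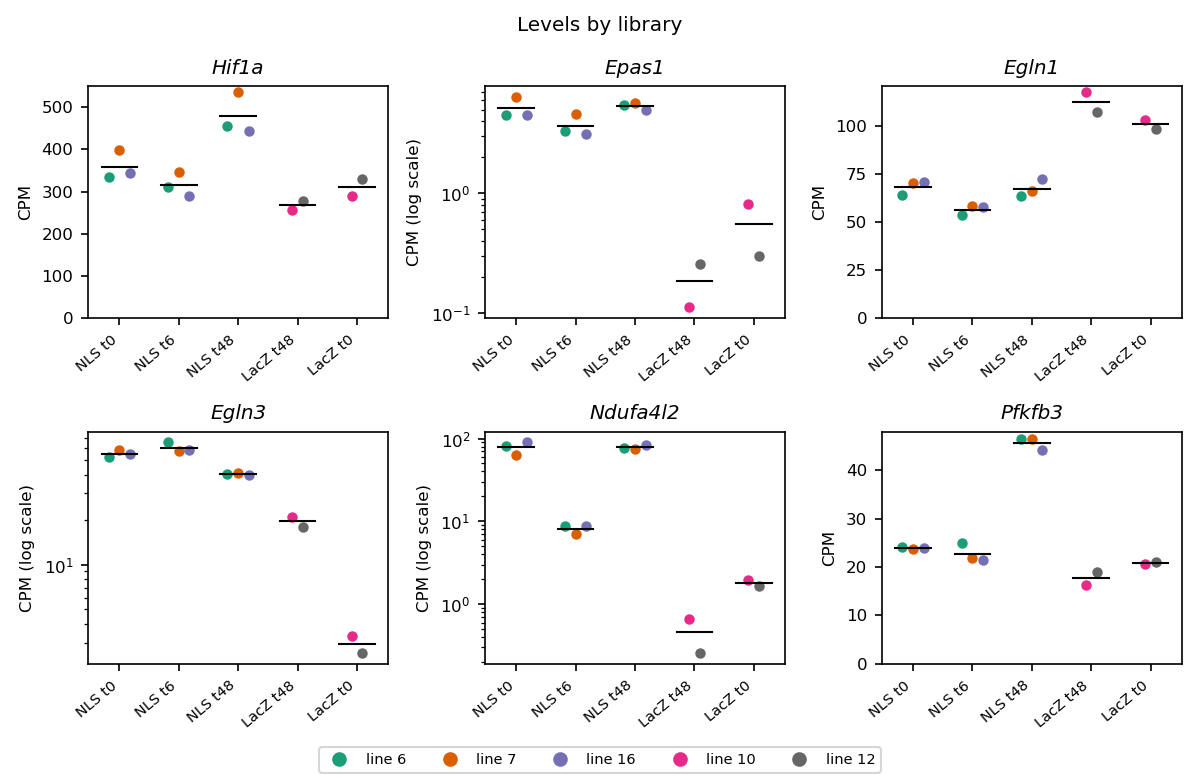
CPM of 6 members by library (points coloured by cell line, bars at group means), with log axes for Epas1, Egln3 and Ndufa4l2 and linear axes from 0 for Hif1a, Egln1 and Pfkfb3. Ndufa4l2 is lowest in NLS t6 among the NLS groups, Pfkfb3 and Hif1a are highest in NLS t48, and Egln3 is higher in LacZ t48 than in LacZ t0.

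NLS t48 against NLS t6 shares its libraries with both comparisons above. In NLS t48, 10 of 23 glycolytic genes were higher and 1 was lower, and 10 of 15 HIF genes were higher and 1 was lower, against 28.2% of all genes called, 14.6% as higher and 13.6% as lower. Groups of the called members did not overlap. The medians were 0.241 over the glycolytic genes, 0.437 over the HIF genes and 0.001 over all genes. By fold, Ndufa4l2 led (log2 fold change 3.25 ± 0.14 SE, adjusted p = 1.24e-08), at 9.53 times its t6 level. Ndrg1 had 464, 455 and 468 CPM in NLS t48 (log2 fold change 1.03 ± 0.14 SE, adjusted p = 0.000241 against the t6 values above). Bnip3 had the t48 values above, against 54.9, 66.5 and 68.5 CPM in NLS t6 (log2 fold change 0.79 ± 0.0944 SE, adjusted p = 4.14e-05), and Higd1a 71.2, 69.5 and 78.4 CPM in NLS t48 (log2 fold change 0.61 ± 0.0783 SE, adjusted p = 6.45e-05). Hif1a was higher as well (log2 fold change 0.60 ± 0.0944 SE, adjusted p = 0.000421), and Egln3 was lower (log2 fold change -0.58 ± 0.0816 SE, adjusted p = 0.000147). Of the glycolytic genes, Pfkfb3 had 24.9, 21.9 and 21.5 CPM in NLS t6 (log2 fold change 1.004 ± 0.0741 SE, adjusted p = 5.02e-07) and Hk2 42.3, 46.4 and 45.6 CPM (log2 fold change 0.60 ± 0.0646 SE, adjusted p = 1.53e-05). Slc2a3, with 12.6, 11.7 and 10.4 CPM in NLS t48, and Pdk1 were higher than at t6 by log2 fold changes of 0.79 ± 0.11 and 0.69 ± 0.0981 SE. Pfkp was the 1 glycolytic gene called as lower, with 136, 136 and 148 CPM in NLS t48, against 156, 165 and 158 CPM in NLS t6 (log2 fold change -0.19 ± 0.0548 SE, adjusted p = 0.0186). Egln1 and Vegfa were also higher than at t6 (0.25 and 0.27 on the log2 scale), and Pdk3, a further kinase of pyruvate dehydrogenase, passed in this comparison (log2 fold change 0.22 ± 0.0672 SE, adjusted p = 0.0265), while Ldha did not pass (adjusted p = 0.255). Without line 6, 14 members were called in place of 22, and over all genes 2043 in place of 3673. Calls of 15 members held without any 1 library, and those of Aldoa, Egln1, Eno2, Pdk3, Pfkp, Pgk1 and Vegfa did not, with adjusted p-values of up to 0.139 (Vegfa, without the NLS t48 library of line 6), and each of the 6 libraries, left out, ended at least 1 of these. With the cell line as a block, 32 members were called. Among those gained were Ldhb, as higher in NLS t48 (adjusted p = 4.46e-06, against 0.215 with no block), Slc2a1 (adjusted p = 0.000359, against 0.0504 with no block) and Epas1 (0.0228, against 0.103).

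In the LacZ lines, many glycolytic genes were higher at t48 than at t0. Of 23 glycolytic genes 10 were higher in LacZ t48 and 0 were lower, and of 15 HIF genes 6 were higher and 1 was lower, against 18.5% of all genes called, 8.68% as higher and 9.87% as lower. The medians were 0.23 over the glycolytic genes, 0.234 over the HIF genes and 0.001 over all genes. At an unadjusted p below 0.05, 1 glycolytic gene was lower, and DESeq2 called 0 as lower. These groups hold 2 libraries each, and those of the called members did not overlap. Ribosomal protein genes took 4.68 to 5.03% of reads in LacZ t48 and 4.47 to 4.495% in LacZ t0, and the summed leukocyte markers were at 7.78 to 9.06 CPM in LacZ t48 and 5.79 to 6.703 CPM in LacZ t0. The keratinocyte sum was 2.15 to 2.17 CPM in LacZ t48 and 3.81 to 4.345 CPM in LacZ t0. The fibroblast sum, given above and mostly collagen genes, was lower in LacZ t48. The part of these in the result was not tested.

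Gpi1, which turns glucose phosphate into fructose phosphate, had 1292 and 1182 CPM in LacZ t48, against 866 and 811 CPM in LacZ t0 (log2 fold change 0.56 ± 0.0827 SE, adjusted p = 0.000547). Hk2 had 56.02 and 50.4 CPM in LacZ t48, against 35.3 and 38.8 CPM in LacZ t0 (log2 fold change 0.52 ± 0.0806 SE, adjusted p = 0.000762). Tpi1 had 1297 and 1196 CPM in LacZ t48, against 944 and 938 CPM in LacZ t0 (log2 fold change 0.41 ± 0.0709 SE, adjusted p = 0.00179). Both t48 libraries lay above both t0 libraries in each case. Slc2a1 had 208 and 188 CPM in LacZ t48, against 135 and 132 CPM in LacZ t0 (log2 fold change 0.57 ± 0.10 SE, adjusted p = 0.00242). Ldha had 2471 and 2280 CPM in LacZ t48, against 1835 and 1734 CPM in LacZ t0 (log2 fold change 0.41 ± 0.0906 SE, adjusted p = 0.00719), and Pdk1 174 and 167 CPM in LacZ t48, against 120.1 and 117 CPM in LacZ t0 (log2 fold change 0.52 ± 0.12 SE, adjusted p = 0.00865). All 3 were higher in both lines. The remaining calls, Pgk1, Pgam1, Hk1 and Eno2, had log2 fold changes of 0.23 (Hk1) to 0.76 (Eno2).

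Egln3, whose transcription HIF itself raises, had by far the largest increase in the LacZ lines. It had 20.9 and 17.96 CPM in LacZ t48, against 3.32 and 2.55 CPM in LacZ t0 (log2 fold change 2.73 ± 0.14 SE, adjusted p = 6.75e-08), 6.63 times the t0 level. Higd1a had 129 and 116 CPM in LacZ t48, against 83.4 and 88.8 CPM in LacZ t0 (log2 fold change 0.50 ± 0.0937 SE, adjusted p = 0.00263). Ndrg1 had 433 and 466 CPM in LacZ t48, against 250.3 and 300.4 CPM in LacZ t0 (log2 fold change 0.71 ± 0.17 SE, adjusted p = 0.0145). These 3 genes were higher in both lines. Bnip3l had 152 and 160.5 CPM in LacZ t48, against 131 and 132 CPM in LacZ t0 (log2 fold change 0.25 ± 0.0646 SE, adjusted p = 0.0174), and Ero1l and Bnip3 were higher by 0.51 and 0.38 on the log2 scale. Ndufa4l2 was lower, at 0.667 and 0.256 CPM in LacZ t48, against 1.98 and 1.65 CPM in LacZ t0 (log2 fold change -1.98 ± 0.43 SE, adjusted p = 0.00784) and resting on 12 and 5 reads in LacZ t48 and 37 and 33 reads in LacZ t0. Hif1a had 257 and 277 CPM in LacZ t48 and 289 and 331 CPM in LacZ t0 (log2 fold change -0.21 ± 0.12 SE, adjusted p = 0.222). Vegfa had 171 and 177 CPM in LacZ t48 and 181 and 179 CPM in LacZ t0 (adjusted p = 0.784), and Egln1 118 and 108 CPM in LacZ t48 and 103 and 98.7 CPM in LacZ t0 (adjusted p = 0.199). Epas1 had 0.111 and 0.256 CPM in LacZ t48 and 0.804 and 0.2997 CPM in LacZ t0 (adjusted p = 0.0865).

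The LacZ calls depend on single libraries. Of 17, those of Egln3, Gpi1, Hk2, Tpi1, Slc2a1, Pgk1 and Higd1a held without any 1 of the 4 libraries, and each library, left out, ended some of the others. Fewer members were called without any 1 of these libraries, and fewer still without either line. The same held for the number called over all genes. Each of these fits leaves 1 library in a LacZ group. Egln3 and Gpi1 were called in both of the fits that leave out a line. With the cell line as a block 27 members were called. Among the 10 gained, Hif1a (adjusted p = 0.00362), Pfkfb3 (0.045) and Epas1 (0.0377) were lower, and Aldoa (0.000342), Pfkl (0.0031), Gapdh (0.0147), Mxi1 (0.0165), Egln1 (0.0332), Ankrd37 (0.0381) and Kdm3a (0.0406) were higher.

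Whether the t48 difference was the same in both constructs was tested directly, as the NLS difference minus the LacZ difference. Among glycolytic genes 8 of 23 were lower by this measure and 1 was higher, and among HIF genes 4 of 15 were lower and 3 were higher, against 23.3% of all genes called, 11.2% as lower and 12.1% as higher. The medians were -0.232 over the glycolytic genes, -0.18 over the HIF genes and 0.02 over all genes. The libraries are those of the t48 comparisons above, so the values are not independent of them.

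Several enzymes of the main route rose at t48 in the LacZ lines, and in the NLS lines they fell or did not pass. For Gpi1 the log2 fold change was -0.076 ± 0.0674 SE in NLS and 0.56 ± 0.0827 SE in LacZ, a difference of -0.64 ± 0.11 SE (adjusted p = 0.000886). Pgam1 had -0.26 ± 0.0629 in NLS and 0.30 ± 0.0769 in LacZ (difference -0.56 ± 0.0994 SE, adjusted p = 0.00133). Tpi1 had -0.085 ± 0.0578 in NLS and 0.41 ± 0.0709 in LacZ (difference -0.49 ± 0.0914 SE, adjusted p = 0.00185). The LacZ value was above 0 and the NLS value below 0 for each of these 3 genes. The differences of Pgk1, Hk1, Ldha, Pdk1 and Slc2a1 were also below 0, at -0.54 (Pdk1) to -0.40 (Slc2a1). Of these, Slc2a1 had a log2 fold change above 0 in both constructs, 0.17 ± 0.0856 SE in NLS and 0.57 ± 0.10 SE in LacZ, and with the cell line as a block it passed as higher in NLS t48 (adjusted p = 0.00789). A core stood in windows of some members called in either direction by this measure. It stood in those of Pgam1, Pgk1, Ldha, Pdk1 and Egln3, printed above, as in those of Pfkfb3, Hif1a and Vegfa, which were higher. The windows of Gpi1 and Tpi1, also called as lower, held neither core. Bnip3l and Ndufa4l2, called as well, had no window. Pfkfb3 went the other way, with 0.93 ± 0.0736 in NLS and -0.24 ± 0.0952 in LacZ (difference 1.17 ± 0.12 SE, adjusted p = 2.21e-05). Hk2, in contrast, was higher at t48 in both constructs, and its difference was 0.037 ± 0.10 SE (adjusted p = 0.84).

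Among HIF genes Egln3 had the widest gap, -0.45 ± 0.0815 in NLS and 2.73 ± 0.14 in LacZ (difference -3.18 ± 0.16 SE, adjusted p = 4.66e-08). Its LacZ t48 libraries still lay below its NLS t48 libraries. Bnip3l (difference -0.48 ± 0.0833 SE), Higd1a (-0.61 ± 0.12) and Ero1l (-0.57 ± 0.17) were also lower by this measure. Hif1a was higher, with 0.41 ± 0.0941 in NLS and -0.21 ± 0.12 in LacZ (difference 0.63 ± 0.15 SE, adjusted p = 0.00901). Vegfa had 0.40 ± 0.0853 in NLS and -0.051 ± 0.10 in LacZ (difference 0.46 ± 0.14 SE, adjusted p = 0.027), and Ndufa4l2 -0.006 ± 0.12 in NLS and -1.98 ± 0.43 in LacZ (difference 1.98 ± 0.45 SE, adjusted p = 0.00765). The differences of Egln1 (-0.18 ± 0.10 SE, adjusted p = 0.236) and Epas1 (1.58 ± 0.63 SE, adjusted p = 0.0855) did not pass.

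Of the 16 calls, 10 held without any 1 of the 10 libraries. Those of Slc2a1, Vegfa, Ero1l, Pdk1 and Ldha did not, with adjusted p-values of up to 0.17, 0.0977, 0.12, 0.0776 and 0.0688, and that of Ndufa4l2 was lost without the LacZ t48 library of line 12 (0.0691). The Ero1l value comes from the fit without the LacZ t48 library of line 12 and the other 4 from that without the LacZ t48 library of line 10, and each call was also lost without other libraries, Slc2a1 without 8 of the 10. Without line 10 altogether, which leaves 1 library in each LacZ group, fewer members were called, as were fewer of all genes. Hif1a had adjusted p-values of up to 0.0782 with 1 line left out. With the cell line as a block 23 members were called, among them Ldhb (adjusted p = 7.19e-05), Pfkl (0.000974), Ddit4 (0.0018), Eno1 (0.014), Gapdh (0.0263), Kdm3a (0.034) and Epas1 (0.0351).

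**Figure D4:**
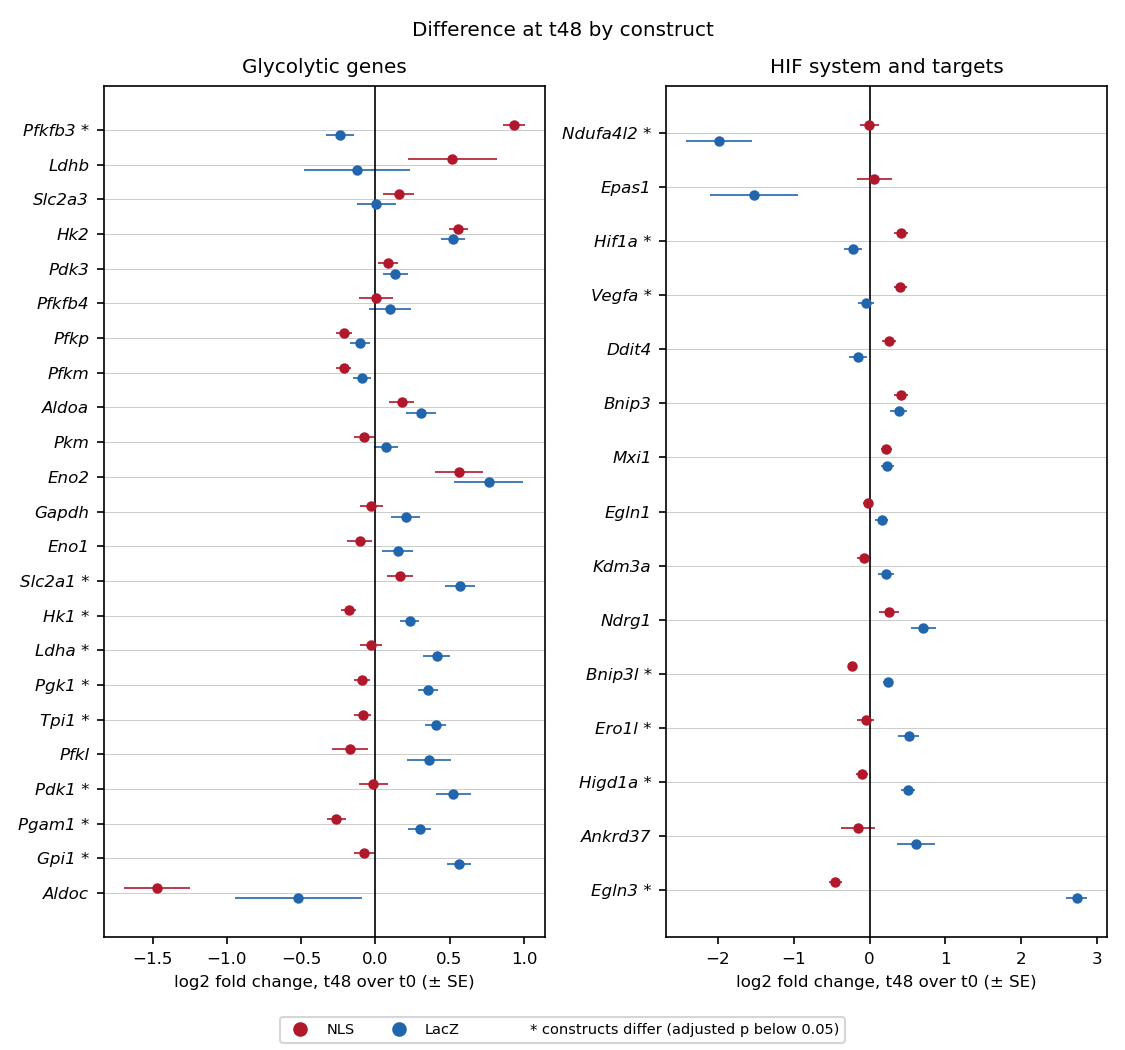
Log2 fold change of t48 over t0 in the NLS lines (red) and in the LacZ lines (blue) for each tested member, with bars of 1 standard error; a star marks members whose 2 values differ at an adjusted p below 0.05. For Gpi1, Pgam1, Tpi1 and Pgk1 the LacZ point lies right of 0 and the NLS point left of it, and Pfkfb3 and Hif1a show the opposite order.

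The constructs were then compared at the same time label, where line and construct cannot be told apart and a large part of all genes differed. Among glycolytic genes 5 of 23 were higher in NLS t0 than in LacZ t0 and 6 were lower, and among HIF genes 5 of 15 were higher and 4 were lower, against 43.5% of all genes called (21.1% as higher, 22.4% as lower). At t48, 4 of 23 glycolytic genes were higher in NLS and 13 were lower, and 4 of 15 HIF genes were higher and 7 were lower, against 45.1% of all genes called (23% as higher, 22.2% as lower). The share of members called at t0, 20 of 38, is close to that background. At t48 the median was -0.403 over the glycolytic genes, -0.201 over the HIF genes and 0.006 over all genes, and at t0 it was -0.071, -0.085 and -0.004.

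A few HIF genes were at much higher levels in the NLS lines. Ndufa4l2 had 81.8, 63.6 and 89.6 CPM in NLS t0, against 1.98 and 1.65 CPM in LacZ t0 (log2 fold change 5.43 ± 0.21 SE, adjusted p = 8.16e-10), and at t48 it was also higher (log2 fold change 7.41 ± 0.27 SE, adjusted p = 2.62e-10). Egln3 had 52.3, 58.9 and 54.6 CPM in NLS t0, against 3.32 and 2.55 CPM in LacZ t0 (log2 fold change 4.24 ± 0.13 SE, adjusted p = 2.41e-11), and at t48 it was higher as well (log2 fold change 1.06 ± 0.0986 SE, adjusted p = 1.33e-06). Epas1 had 4.47, 6.42 and 4.503 CPM in NLS t0, against 0.804 and 0.2997 CPM in LacZ t0 (log2 fold change 3.22 ± 0.35 SE, adjusted p = 6.90e-06), and at t48 the log2 fold change was 4.80 ± 0.42 SE. No library of one construct reached into the range of the other for these 3 genes. Hif1a was higher in NLS at t48 (log2 fold change 0.84 ± 0.11 SE, adjusted p = 3.50e-05), and at t0 it did not pass (adjusted p = 0.124).

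Other HIF genes were lower in the NLS lines. Egln1 had 63.9, 70.3 and 71.05 CPM in NLS t0, against 103 and 98.7 CPM in LacZ t0 (log2 fold change -0.56 ± 0.0732 SE, adjusted p = 3.50e-05), and at t48 the log2 fold change was -0.74 ± 0.0731 SE. Bnip3 had 75.2, 84.3 and 87.3 CPM in NLS t0, against 132 and 138 CPM in LacZ t0 (log2 fold change -0.71 ± 0.10 SE, adjusted p = 9.27e-05). Ankrd37, an ankyrin repeat protein and known HIF target, had 1.32, 1.69 and 1.805 CPM in NLS t48, against 5.39 and 5.07 CPM in LacZ t48 (log2 fold change -1.70 ± 0.23 SE, adjusted p = 5.32e-05). Ddit4, an inhibitor of mTOR signalling, had 58.1, 63.4 and 50.1 CPM in NLS t0, against 77.8 and 87.95 CPM in LacZ t0 (log2 fold change -0.53 ± 0.11 SE, adjusted p = 0.0012), and Higd1a was lower at t48 (log2 fold change -0.74 ± 0.0846 SE, adjusted p = 8.79e-06). Kdm3a, a histone demethylase, was lower at t48, with a log2 fold change of -0.38 ± 0.0984 SE (adjusted p = 0.00655). Vegfa passed at neither time (adjusted p = 0.0528 at t0 and 0.0877 at t48).

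Of the glycolytic genes, Aldoc and Eno2 were higher in the NLS lines at both times. Aldoc had 6.505, 9.998 and 7.28 CPM in NLS t0, against 0.804 and 0.649 CPM in LacZ t0 (log2 fold change 3.44 ± 0.31 SE, adjusted p = 1.11e-06), and Eno2 5.18, 4.98 and 5.56 CPM in NLS t0, against 1.98 and 1.85 CPM in LacZ t0 (log2 fold change 1.45 ± 0.21 SE, adjusted p = 9.34e-05). Both were also higher at t48, by 2.49 ± 0.34 and 1.25 ± 0.20 SE, while Aldoa and Eno1 were lower at t48, with log2 fold changes of -0.53 ± 0.0935 and -0.46 ± 0.0933 SE. Pfkfb3 was higher in NLS t48, at the values above, against 16.4 and 18.9 CPM in LacZ t48 (log2 fold change 1.37 ± 0.0872 SE, adjusted p = 2.70e-08), as was Hk2 (log2 fold change 0.35 ± 0.0725 SE, adjusted p = 0.00133). Pfkm was higher in NLS t0, with the values above, against 145 and 140.5 CPM in LacZ t0 (log2 fold change 0.24 ± 0.0548 SE, adjusted p = 0.00293), and Hk2 also passed at t0 (0.32 on the log2 scale). Genes of the main route were lower in NLS t48. Pgam1 had the NLS t48 values above, against 1587 and 1445 CPM in LacZ t48 (log2 fold change -0.76 ± 0.0694 SE, adjusted p = 1.10e-06). Pgk1 had 1580, 1389 and 1533 CPM in NLS t48, against 2216 and 2298 CPM in LacZ t48 (log2 fold change -0.59 ± 0.0592 SE, adjusted p = 2.68e-06). Tpi1 had 795, 741 and 832 CPM (log2 fold change -0.66 ± 0.0639 SE, adjusted p = 1.89e-06) and Gpi1 803, 705 and 853 CPM in NLS t48 (log2 fold change -0.65 ± 0.0744 SE, adjusted p = 9.00e-06), both below their LacZ t48 values above. Slc2a1 was lower in NLS at both times (-0.36 at t0 and -0.76 at t48), while Ldha and Pdk1 were lower at t48 (-0.43 and -0.76) and did not pass at t0 (adjusted p = 0.898 and 0.105). Aldoa had 1189, 1039 and 1219 CPM in NLS t0, against 1599 and 1442 CPM in LacZ t0 (log2 fold change -0.41 ± 0.0937 SE, adjusted p = 0.00338). Pkm had 2890, 2572 and 2910 CPM in NLS t0, against 3961 and 3773 CPM in LacZ t0 (log2 fold change -0.47 ± 0.0749 SE, adjusted p = 0.000194).

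Without the LacZ t0 library of line 10, which leaves 1 library in that group, fewer members were called at t0, as were fewer of all genes. Aldoa, Ankrd37, Hk2, Ndrg1, Pfkl, Pfkp, Pgam1, Slc2a1 and Tpi1 lost their calls, with log2 fold changes of -0.33 (Aldoa) and -0.30 (Pfkl). Pfkl, Tpi1, Pgam1 and Ndrg1 also lost theirs without other libraries. At t48, 26 of 28 calls held without any 1 of the 5 libraries. Those of Ero1l and Kdm3a were lost without the LacZ t48 library of line 12 (adjusted p = 0.243 and 0.0693), and that of Ero1l also without the NLS t48 library of line 6 or 7.

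Within a construct, the lines were compared over their time labels. With the time label as a block, 4 of 38 members were called between NLS lines 6 and 16, 1 higher and 3 lower in line 6, against 2.26% of all genes (0.882% higher, 1.38% lower). Between NLS lines 7 and 16 it was 12, 3 higher and 9 lower in line 7, against 22.6% of all genes (11.8% higher, 10.8% lower). Between NLS lines 7 and 6 it was 4, 3 higher and 1 lower in line 7, against 11.1% of all genes (5.9% higher, 5.19% lower). Between LacZ lines 12 and 10, edgeR called 0 of 38, against 0.123% of all genes (0.092% higher, 0.0307% lower). There 6 members had an unadjusted p below 0.05, and DESeq2 called 1, Ero1l, which had the smallest p also in edgeR (log2 fold change 0.36 ± 0.0692 SE, adjusted p = 0.0552).

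Line 7 stood apart in Ldhb, the lactate dehydrogenase subunit that favours pyruvate. At t0, t6 and t48, line 7 had 51.1, 45.1 and 66.3 CPM, against 25.3, 26.9 and 42.0 CPM in line 16 (log2 fold change 0.80 ± 0.0665 SE, adjusted p = 3.91e-07) and 28.8, 31.7 and 42.4 CPM in line 6 (log2 fold change 0.66 ± 0.0656 SE, adjusted p = 8.94e-06). Hif1a was higher in line 7 as well, by 0.25 ± 0.0408 SE against line 16 and 0.22 ± 0.0407 SE against line 6, as its values at every time show. Aldoa had 1039, 1022 and 1194 CPM in line 7, against 1219, 1170 and 1410 CPM in line 16 (log2 fold change -0.22 ± 0.0444 SE, adjusted p = 0.0018). Pfkl had 188, 149 and 169 CPM in line 7, against 232, 173 and 219 CPM in line 16 (log2 fold change -0.30 ± 0.0633 SE, adjusted p = 0.005). Both genes were lower in line 7 at each time. Gapdh had 4611, 3987 and 4626 CPM in line 7, against 5537, 4242 and 5537 CPM in line 16, and Eno1 959, 831 and 934 CPM in line 7, against 1137, 934 and 1051 CPM in line 16 (log2 fold changes -0.20 ± 0.049 and -0.20 ± 0.0477 SE). Ddit4 had 63.4, 52.4 and 75.7 CPM in line 7, against 50.1, 48.99 and 59.3 CPM in line 16 (log2 fold change 0.26 ± 0.0591 SE, adjusted p = 0.00403). Line 7 was also lower than line 16 in Ndufa4l2 (-0.33 ± 0.0735), Higd1a (-0.19 ± 0.0539), Slc2a1 (-0.17 ± 0.0457), Ldha (-0.16 ± 0.0495) and Gpi1 (-0.14 ± 0.047). Against line 6 it was higher in Pdk1 (0.28 ± 0.0516) and lower in Vegfa (-0.23 ± 0.0454). Line 6 was lower than line 16 in Slc2a1 (-0.24 ± 0.0457 SE), Bnip3 (-0.27 ± 0.0526) and Pdk1 (-0.20 ± 0.0518) and higher in Vegfa (0.20 ± 0.0455). None of these 4 calls held in all of the 6 fits without 1 library, and the number called was 0 without the NLS t48 library of line 16, 1 without the NLS t6 library of line 6 or 16, and 2 without the NLS t0 library of line 16 or the NLS t48 library of line 6. The fits just named called 115 to 183 of all genes, against 295 with every library. Of the 12 calls between lines 7 and 16, 4 held in all fits without 1 library, Ldhb, Hif1a, Aldoa and Pfkl. The number called was 6 without the NLS t48 library of line 16 or the NLS t0 library of line 7. Those fits called 1687 and 1493 of all genes, in that order, against 2950 with every library. The 4 calls between lines 7 and 6 held in all fits without 1 library, and 8 were made without the NLS t48 library of line 7. That fit called 1193 of all genes, against 1446 with every library. With no time block, none of these comparisons called a member, and hardly any gene was called at all. Over all genes it was 1 between lines 6 and 16, 9 between lines 7 and 16 and 0 in the other comparisons. Pfkfb4, at 5.95 to 8.85 CPM over the 13 libraries, was called in none of the 11 comparisons, and it passed as lower in NLS t6 than in NLS t0 when the NLS t0 library of line 16 was left out (adjusted p = 0.034).

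The Pkm gene makes 2 forms of pyruvate kinase by the choice of 1 of 2 neighbouring exons, each of 167 bases, the M1 exon at chr9:59675029-59675195 and the M2 exon at chr9:59675568-59675734 (GRCm38, plus strand). M2 is the form of proliferating cells and M1 that of muscle and brain. The M1 transcript made 9.345 ± 0.819% of the TPM of both forms in NLS t0, 13.02 ± 1.36% in NLS t6 and 9.865 ± 0.62% in NLS t48 (SD, n = 3 each), and 15.7 ± 2.39% in LacZ t48 against 19.1 ± 0.629% in LacZ t0 (SD, n = 2 each). M2 was the major form in every library. By line, the M1 share was 8.71, 10.3 and 9.05% in NLS t0, 11.45, 13.8 and 13.8% in NLS t6 and 9.87, 10.48 and 9.24% in NLS t48, and 17.4 and 14.03% in LacZ t48 against 19.55 and 18.7% in LacZ t0. The NLS t6 values lay above all other NLS values. Shares were not tested, and they rest on the division of reads between transcripts that share most of their length. M1 itself was at 214 ± 31.2 TPM in NLS t6 and 172 ± 8.47 TPM in NLS t0, and M2 at 1423 ± 43.1 TPM in NLS t6 and 1676 ± 87.1 TPM in NLS t0.

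**Figure D5:**
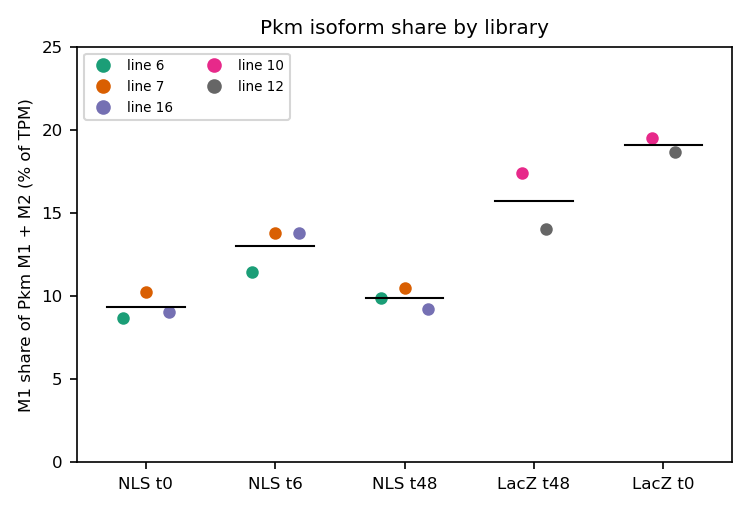
Share of the Pkm M1 transcript in the summed TPM of the M1 and M2 transcripts (percent, axis from 0), 1 point per library coloured by cell line, with bars at group means. The NLS t6 points lie at 11.45 to 13.8%, above the other NLS points, and the LacZ points lie at 14.03 to 19.55%.

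Other genes of both pathways were counted from 2 lists of 52 genes each. Of the other genes of glucose and carbon use 37 were tested and of the other HIF pathway genes 46. At NLS t6 against NLS t0, 9.23% of all genes were lower and 11.6% higher. In the 2 lists, 7 of 37 and 11 of 46 were lower and 1 and 1 were higher, with medians of -0.114 and -0.134. Among them were Pgm1, which links glycogen to glycolysis (log2 fold change -0.70 ± 0.0549 SE, adjusted p = 2e-06), Slc16a3, a lactate exporter (-1.39 ± 0.28 SE, adjusted p = 0.00353), and P4ha1 and P4ha2, collagen prolyl hydroxylases (-0.41 ± 0.0417 and -0.71 ± 0.0872 SE). Slc16a3 had 0.936, 2.13 and 2.11 CPM in NLS t6, against 3.36, 4.85 and 5.32 CPM in NLS t0. At NLS t48 against t0, 9 of 37 carbon genes were lower and 0 higher, and 11 of 46 HIF pathway genes were higher and 5 lower. Over all genes it was 14.8% higher and 11.3% lower. At LacZ t48 against t0 the counts were 5 higher and 2 lower of 37, and 10 higher and 5 lower of 46. The shares of all genes there were 8.68% higher and 9.87% lower. Car9, the tumour-associated carbonic anhydrase that HIF strongly induces, had 48.8 and 45.4 CPM in LacZ t48, against 23.2 and 17.4 CPM in LacZ t0 (log2 fold change 1.22 ± 0.166 SE, adjusted p = 0.000327). In the NLS lines Car9 lay between 0.311 and 1.27 CPM in all 9 libraries, below all LacZ libraries, whereas Ndufa4l2, Egln3 and Epas1 were higher in NLS. For the NLS t48 against t0 difference minus that in LacZ, 1 of 37 and 9 of 46 were higher and 9 and 9 were lower. Over all genes, 12.1% were higher and 11.2% lower by this measure.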

How the data were processed

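Poly(A) RNA was sequenced as paired-end reads from a stranded kit, per the labels. Transcript-level estimated counts and TPM were deposited by the authors, and the submitters' processing notes name Salmon 1.2.0 and GRCm38. Of 116546 transcripts 115977 (99.51%) matched the GENCODE M21 annotation, and the 0.121 to 0.165% of reads on the others were left out. Estimated counts were summed per gene and rounded to whole numbers. One edgeR 4.0.16 fit (R 4.3.3; filterByExpr, TMM, quasi-likelihood test with robust dispersion) covered all 13 libraries as 5 group means, and p-values were adjusted by Benjamini and Hochberg over 13044 genes, with calls at 0.05. CPM are on TMM library sizes. Lines were compared in a second fit with time as a block. DESeq2 1.42.0, other scalings and filters, summed near-identical copies, a cell line block and the omission of each library or line were the alternatives.

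Line numbers pair libraries because the same number is the same cell line, per the labels. Deviations from group means correlated at 0.025 to 0.282 in the 9 same-line NLS pairs and at -0.263 to 0.0524 in 18 different-line pairs, and at -0.0201 in the 2 LacZ pairs. No 2 libraries of a group agreed within counting noise (chi-square per degree of freedom of 7.26 or more). By the rule for named genes, each comparison names, per gene group, up to 4 members called in each direction by lowest adjusted p (where nothing passed, the lowest p), some of them by fold change alone, plus Hif1a, Epas1, Egln1, Egln3, Ndufa4l2, Vegfa, Slc2a1, Ldha and Pdk1. The members and lists were chosen with earlier results of these data known.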

Additional observations from a re-analysis of the deposited data

Results flagged for a closer look

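The t48 against t0 difference was not the same in the NLS lines as in the LacZ lines for 16 of the 38 members tested, by edgeR's test of the difference itself with Benjamini-Hochberg adjustment. Over all 13044 genes, 23.3% were called by the same test, 12.1% as higher and 11.2% as lower. Among glycolytic genes the NLS difference minus the LacZ difference, on the log2 scale, was 1.17 for Pfkfb3, -0.64 for Gpi1, -0.56 for Pgam1, -0.54 for Pdk1 and -0.49 for Tpi1. It was -0.44 for both Pgk1 (adjusted p = 0.00217) and Ldha (adjusted p = 0.0153), -0.41 for Hk1 and -0.40 for Slc2a1 (adjusted p = 0.0454). Among HIF genes it was -3.18 for Egln3, -0.61 for Higd1a, -0.57 for Ero1l and -0.48 for Bnip3l. It was 1.98 for Ndufa4l2, 0.63 for Hif1a and 0.46 for Vegfa. Construct and cell line cannot be told apart in these values.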

How the results depend on the processing

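Of 155 member results called, 73 were called under every alternative run and 82 lost their call in 1 or more, and 0 changed direction. DESeq2 kept 153 and gained 12, DESeq2's size factors in edgeR kept 153, no filter on low counts kept 147, and length-scaled TPM counts kept 131. Adding the reads of near-identical copies, chosen after seeing the data, kept all 155. With the cell line as a block, none of 87 calls was lost and 37 were gained. The block moved the number of members called to 27 (17 without it) for LacZ t48 against LacZ t0, 22 (18) for NLS t6 against NLS t0, 20 (14) for NLS t48 against NLS t0, 32 (22) for NLS t48 against NLS t6 and 23 (16) for the difference between constructs. Over all genes it gave, in the same order, 4308 (2419), 4527 (2716), 5188 (3402), 5373 (3673) and 4875 (3045) calls. Comparisons of constructs or of lines allow no such block. Between lines, length-scaled TPM counts gave 0 members for lines 6 and 16 (4 in the fit reported) and 5 for lines 7 and 16 (12). Over all genes they gave 73 (295) and 1026 (2950). With no time block there were 0 members for lines 6 and 16, lines 7 and 16 and lines 7 and 6 (4). Over all genes that setting gave, in the same order, 1 (295), 9 (2950) and 0 (1446) calls. For LacZ lines 12 and 10 the count was 1 with no filter and 1 by DESeq2 (0). Leaving out 1 library or line gave 11 to 17 members for NLS t6 against NLS t0, 7 to 14 for NLS t48 against NLS t0, 14 to 24 for NLS t48 against NLS t6 and 3 to 12 for LacZ t48 against LacZ t0. It gave 9 to 21 for the difference between constructs, 11 to 19 for the constructs at t0 and 26 to 28 at t48. For the lines it gave 0 to 5 (6 and 16), 6 to 15 (7 and 16), 4 to 8 (7 and 6) and 0 to 1 (12 and 10). The number called over all genes moved in these fits as well. The cause of these moves was not tested beyond the fewer libraries in each fit. A group left with 1 library is assumed to vary like the others. Groups of 2 or 3 libraries limit the precision, and levels under 1 CPM rest on few reads.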
